A study of Mus musculus with 28 samples.

Results

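The genes examined here encode the proteins that make and use microRNAs, together with both Lin28 paralogs. They were chosen by name, as the rows for *Dicer1*, *Drosha*, *Dgcr8*, *Ago1*, *Ago2*, *Ago3*, *Xpo5*, *Tarbp2*, *Lin28a* and *Lin28b* in a table of read counts, and make up 10 of its 52636 genes. RNA was sequenced from single first lower molars of wild type C57BL/6JOlaHsd mouse embryos at E13, E14 and E16, labelled E13.5, E14.5 and E16.5. Over this period the tooth germ passes from bud through cap to bell. There were 7 E13 teeth from 7 embryos, 7 E14 teeth from 6 embryos and 7 E16 teeth from 5 embryos. One E13 left tooth carried no embryo number in the table and was taken as its own embryo. A second table, quantified separately, held 7 E13 and 7 E16 teeth, of which at least 6 and 7 are the same, beside 6 teeth of E15, and 1 further labelled E15 tooth was not analysed here. No tooth was treated or mutant, and each library is whole tooth tissue, epithelium and mesenchyme together.

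A microRNA is cut from its primary transcript in the nucleus by the Microprocessor, in which Drosha is the RNase and Dgcr8 binds the hairpin. Exportin 5, the product of *Xpo5*, carries the hairpin to the cytoplasm, where Dicer1 and its partner Tarbp2 (TRBP) trim it to a duplex. One strand is loaded into an Argonaute protein (Ago1 to Ago4), which pairs with target messages mainly through the seed at the 5′ end of the microRNA and lowers their translation and stability. Lin28a and Lin28b bind let-7 precursors, in part through a GGAG motif in the loop, and hold back their maturation. Mature let-7 in turn represses *Lin28b* and other messages of early embryonic tissue, such as *Hmga2* and *Igf2bp1*. In the study *Dicer1* belongs to the progression genes, whose loss arrests the tooth.

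The mature let-7 family is shown because its seed links the Lin28 genes to the targets described later. These RefSeq sequences (GRCm38.p6) run 5′ to 3′, and capitals mark the seed, bases 2 to 8, which was GAGGUAG in all 9 mature sequences of the family.
mmu-let-7a-5p: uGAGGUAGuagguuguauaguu
mmu-let-7b-5p: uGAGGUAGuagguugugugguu
mmu-let-7e-5p: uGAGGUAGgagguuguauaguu
mmu-let-7g-5p: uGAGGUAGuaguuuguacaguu
mmu-miR-98-5p: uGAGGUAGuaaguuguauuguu

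Of the 12 let-7 family precursors in the same source, 9 held GGAG on the transcribed strand between the mature arms and 3 (*Mirlet7b*, *Mirlet7c-2* and *Mir98*) did not. Among 633 other mouse hairpins with both arms annotated, 44 (6.95%) held it. Examples of each kind follow, with GGAG in capitals: *Mirlet7g* at chr9:106178840-106178927 (+), *Mirlet7e* at chr17:17830352-17830444 (+), and, without it, *Mirlet7b* at chr15:85707319-85707403 (+).
Mirlet7g: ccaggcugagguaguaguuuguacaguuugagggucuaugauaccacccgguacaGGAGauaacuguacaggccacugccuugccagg
Mirlet7e: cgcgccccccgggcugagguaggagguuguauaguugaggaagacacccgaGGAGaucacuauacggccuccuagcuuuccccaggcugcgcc
Mirlet7b: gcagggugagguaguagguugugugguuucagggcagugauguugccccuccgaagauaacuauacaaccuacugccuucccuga

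The letters complementary to the let-7 seed, CTACCTC, were searched on the transcribed strand of the longest annotated 3′UTR of each gene (GRCm38, GENCODE vM21). They occurred in 9.02% of 21039 genes with a 3′UTR, and in 24.4% of the 1358 genes with a 3′UTR of a length like that of *Lin28b*. *Lin28b* held 4 matches in 4445 bases, *Ago2* 3 in 11064, *Lin28a* 2 in 2775, and *Ago3* and *Tarbp2* 1 each, while the other 5 genes held none in this window. Among genes with 3′UTRs of like length, 46.2% held a match for *Ago2* and 54.3% for *Ago3*, 14.7% for *Lin28a* and 2.88% for *Tarbp2*. The matches in *Lin28b*, the gene with the largest stage difference, lay on the minus strand at chr10:45381022-45381051, chr10:45378648-45378677, chr10:45378476-45378505 and chr10:45377060-45377089. Capitals mark the match.
Lin28b match 1: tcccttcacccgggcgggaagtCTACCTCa
Lin28b match 2: acgtacatatacttgttagtaaCTACCTCt
Lin28b match 3: aaattctgtttacagcacatggCTACCTCc
Lin28b match 4: agcttggaaatgatggcaccgaCTACCTCt
A match is a run of letters, not a tested site. The libraries were made from longer RNA, so mature microRNAs were not measured.

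Total counts per tooth ranged from 17814073 to 27115729. The E16 left tooth of embryo 3 stood apart. Its median absolute log2 deviation from the other teeth of its stage was 0.56, against 0.12 to 0.21 in the other 20 teeth, and rows annotated as unverified transcripts (TEC) took 1.72% of its counts against 0.69% to 1.01%. Where leaving it out changed a call or moved a value by much, the value without it is in most cases given beside the result. The summed level of 6 dental epithelium markers rose with stage, from 13715 to 20882 normalized counts at E13 to 24128 to 31052 at E14 and 33615 to 60578 at E16. All 6 markers were higher at each step, against 11.3% and 15% of all genes. The summed level of 6 dental mesenchyme markers fell from 73973 to 79031 at E13 and 66613 to 75743 at E14 to 25979 to 48391 at E16. At the 2 steps 2 and then 3 of the 6 were lower, against 8.47% and 13.1% of all genes. Without the E16 left tooth of embryo 3, 3 and then 4 were lower, against 13.8% and 15.8% of all genes. Then 1 was higher at the first step, against 16.7%. Markers of dividing cells summed to 42142 to 45467, 46759 to 59099 and 34668 to 46981. Red cell markers had median sums of 6805, 3889 and 1254 at E13, E14 and E16, and macrophage markers 629.5, 1104 and 1640. The highest red cell marker was *Hbb-y* at E13 and E14 and *Hbb-bt* at E16. Across the 7 red cell markers the median log2 fold change was 0.40 for E14 against E13 and 0.48 for E16 against E13. At E16 against E13, 2 were higher and 1 lower, against 21.6% and 19.6% of all genes. Skeletal muscle markers summed to 27480 in the E13 left tooth of embryo 7 against 600.1 to 4491 in the other 20 teeth. No dental marker was at 0 in every tooth. In whole teeth, fewer cells of a type and less RNA per cell cannot be told apart, and the part of tissue composition in the results below was not tested.

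Per length of message, *Drosha*, *Ago2* and *Ago1* were the most abundant of the set and the Lin28 genes the least. At E13 the mean normalized count per kilobase of exon was 805 ± 40.5 (SD, n = 7) for *Drosha*, 613 ± 35.3 for *Ago2*, 430 ± 39.4 for *Ago1*, 387 ± 13.01 for *Dicer1*, 369 ± 18.3 for *Dgcr8* and 339 ± 13.7 for *Xpo5*. It was 145 ± 10.5 for *Ago3*, 113 ± 16.3 for *Tarbp2*, 16.9 ± 3.21 for *Lin28b* and 0.34 ± 0.44 for *Lin28a*. The ranges of *Ago1* and *Dicer1*, *Dicer1* and *Dgcr8*, *Dgcr8* and *Xpo5*, and *Ago3* and *Tarbp2* overlapped at E13, whereas the other neighbors in this order did not overlap. Among 14564 protein-coding genes in the fit, *Drosha* exceeded 94.4% per kilobase at E13, *Dicer1* 82.6% and *Lin28b* 16.9%.

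**Figure D1:**
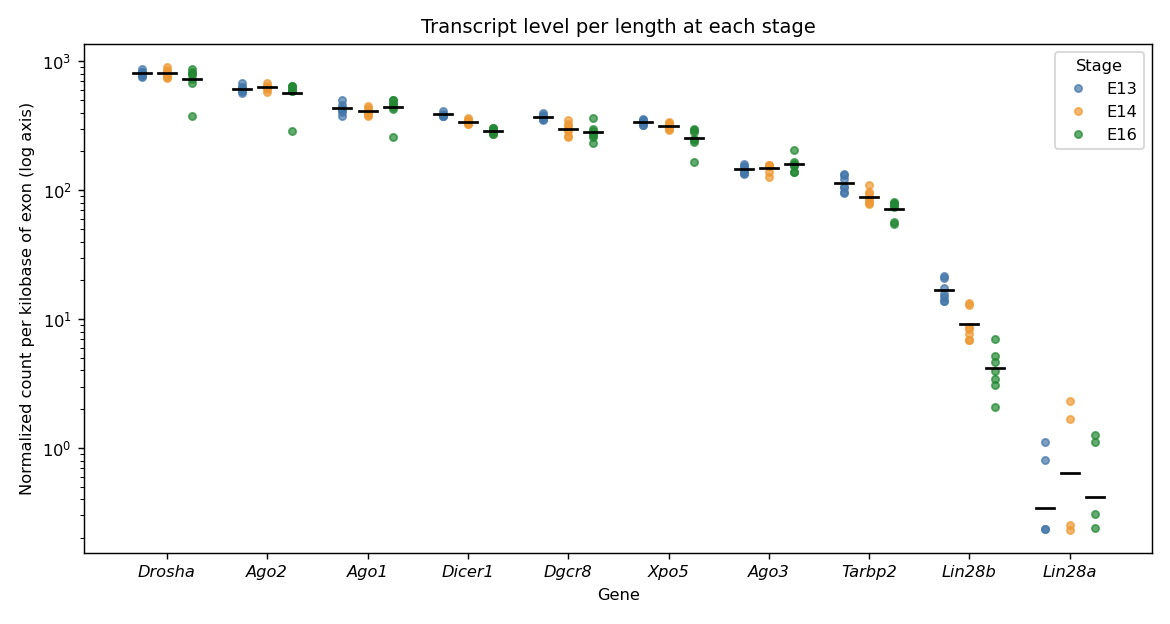
Normalized count per kilobase of exon (log axis) of the 10 genes, ordered by their E13 mean. Points are single teeth (7 per stage, values of 0 not drawn) and black lines are stage means, and *Lin28b* falls from 16.9 at E13 to 4.21 at E16 while *Drosha* stays the highest.

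The order was nearly the same at each stage. At E14 *Xpo5* (317 ± 16.48) stood above *Dgcr8* (300 ± 34.2) per kilobase, but their ranges overlapped and *Xpo5* was the higher in 5 of 7 teeth. At E16 *Dicer1* (289 ± 13.47), *Dgcr8* (283 ± 41.2) and *Xpo5* (253 ± 45.2) overlapped in range. *Drosha* was above *Dgcr8* per kilobase in every tooth, and the ratio averaged 2.19 ± 0.15 (SD, n = 7) at E13, then 2.73 ± 0.47 at E14 and 2.66 ± 0.83 in the E16 teeth. The ratio at E16 ran from 1.04 in the tooth of embryo 3 to 3.55. *Ago2* made up 49.5% ± 2.69 of the summed *Ago1* to *Ago4* level per kilobase at E13, 51.0% ± 0.94 at E14 and 45.6% ± 4.82 at E16, where the tooth of embryo 3 had 34.8% and the other 6 had 46.1% to 48.2%.

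Of the 10 genes, 9 passed the filter on low counts and were tested, and *Lin28a* did not. From E13 to E14, 4 of these 9 fell (*Dgcr8*, *Dicer1*, *Tarbp2* and *Lin28b*) and none rose, where 8.47% of all 19101 tested genes fell and 11.3% rose. From E14 to E16, 4 fell (*Dicer1*, *Tarbp2*, *Lin28b* and *Xpo5*) and none rose, against 13.1% and 15% of all genes. Over both steps, E16 against E13, 5 fell and none rose, against 19.6% and 21.6%. The median log2 fold change of the 9 genes was -0.10, -0.16 and -0.38 in these comparisons, beside -0.01, 0.00 and -0.01 for all genes. Without the E13 tooth rich in muscle markers the counts were again 4, 4 and 5. The comparisons share the teeth of a stage and are not independent. *Dicer1*, *Tarbp2* and *Lin28b* fell at both steps, as did 294 genes in all (1.54%).

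**Figure D2:**
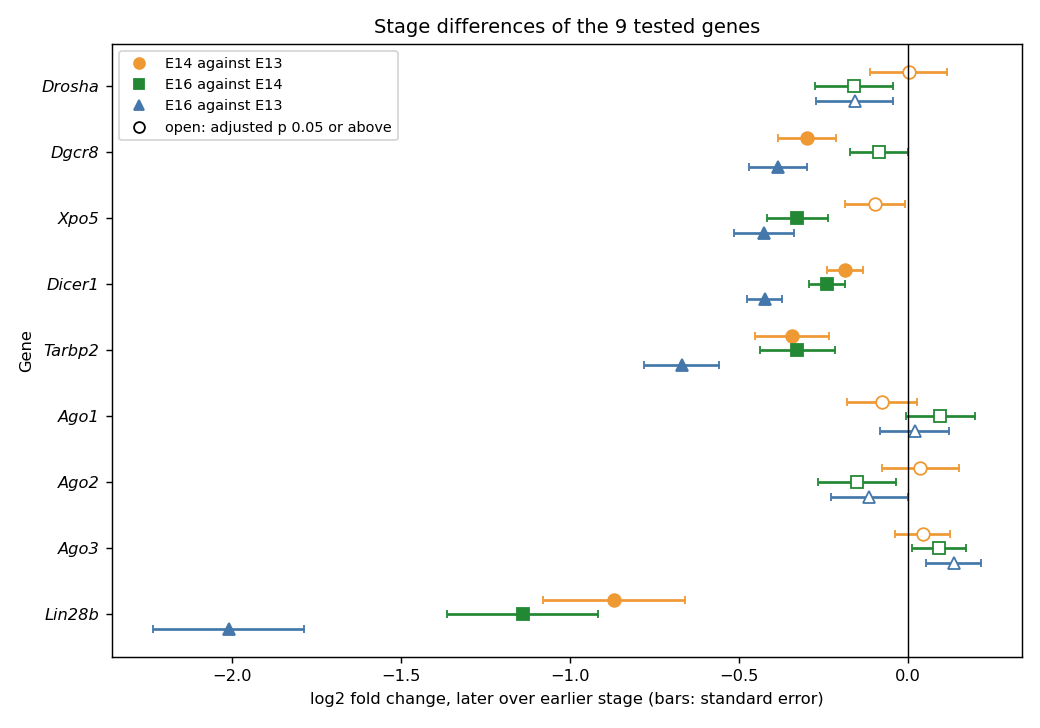
Log2 fold change (x axis) with standard error of the 9 tested genes (y axis) for E14 against E13, E16 against E14 and E16 against E13. Filled symbols passed an adjusted p under 0.05, all of them lie left of 0, and *Lin28b* lies farthest, at -2.01 for E16 against E13.

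*Dicer1* (chr12:104687742-104751952, minus strand, GRCm38), the RNase that makes the mature duplex, fell at both steps. Its normalized count ran from 6341 to 6935 at E13 (median 6368), from 5422 to 6039 at E14 (median 5761) and from 4578 to 5100 at E16 (median 4808). The ranges of the 3 stages did not overlap, so that every E14 tooth lay below every E13 tooth and every E16 tooth below every E14 tooth. The mean at E14 was 88.1% of that at E13, and the mean at E16 was 74.8%. The log2 fold change was -0.19 (SE 0.05) for E14 against E13 (edgeR quasi-likelihood test, adjusted p = 0.0142), -0.24 (SE 0.05) for E16 against E14 (edgeR adjusted p = 0.00121) and -0.42 (SE 0.05) for E16 against E13 (edgeR adjusted p = 4.73e-07). The E16 left tooth of embryo 3 had a *Dicer1* level inside the range of the other E16 teeth (4808 against 4578 to 5100). *Tarbp2*, which encodes the double-stranded RNA binding partner of Dicer, also fell at both steps.

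*Tarbp2* was a low-count gene, with 436 to 612 normalized counts at E13 (median 483), 357 to 499.6 at E14 (median 386) and 248 to 366 at E16 (median 349). The E13 and E16 ranges did not overlap, and 5 of 7 teeth at E14 and 5 of 7 at E16 lay below every tooth of the stage before. Its log2 fold change was -0.34 (SE 0.11) at the first step (edgeR adjusted p = 0.0290), -0.33 (SE 0.11) at the second (edgeR adjusted p = 0.0283) and -0.67 (SE 0.11) over both (edgeR adjusted p = 2.67e-05). Both single-step calls rested on single teeth, whereas the call over both steps did not. The first was lost in edgeR without the E14 right tooth of embryo 3 (adjusted p = 0.0610), the right (0.0609) or left (0.0592) tooth of embryo 6 or the left tooth of embryo 8 (0.0530), and without the E13 left tooth of embryo 2 (0.0554), right tooth of embryo 5 (0.0728) or the left tooth with no embryo number (0.0646). The second was lost without the E16 right tooth of embryo 6 (0.0844) or embryo 8 (0.0906), or the E14 right tooth of embryo 1 (0.0925), embryo 2 (0.0699) or embryo 5 (0.0618).

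**Figure D3:**
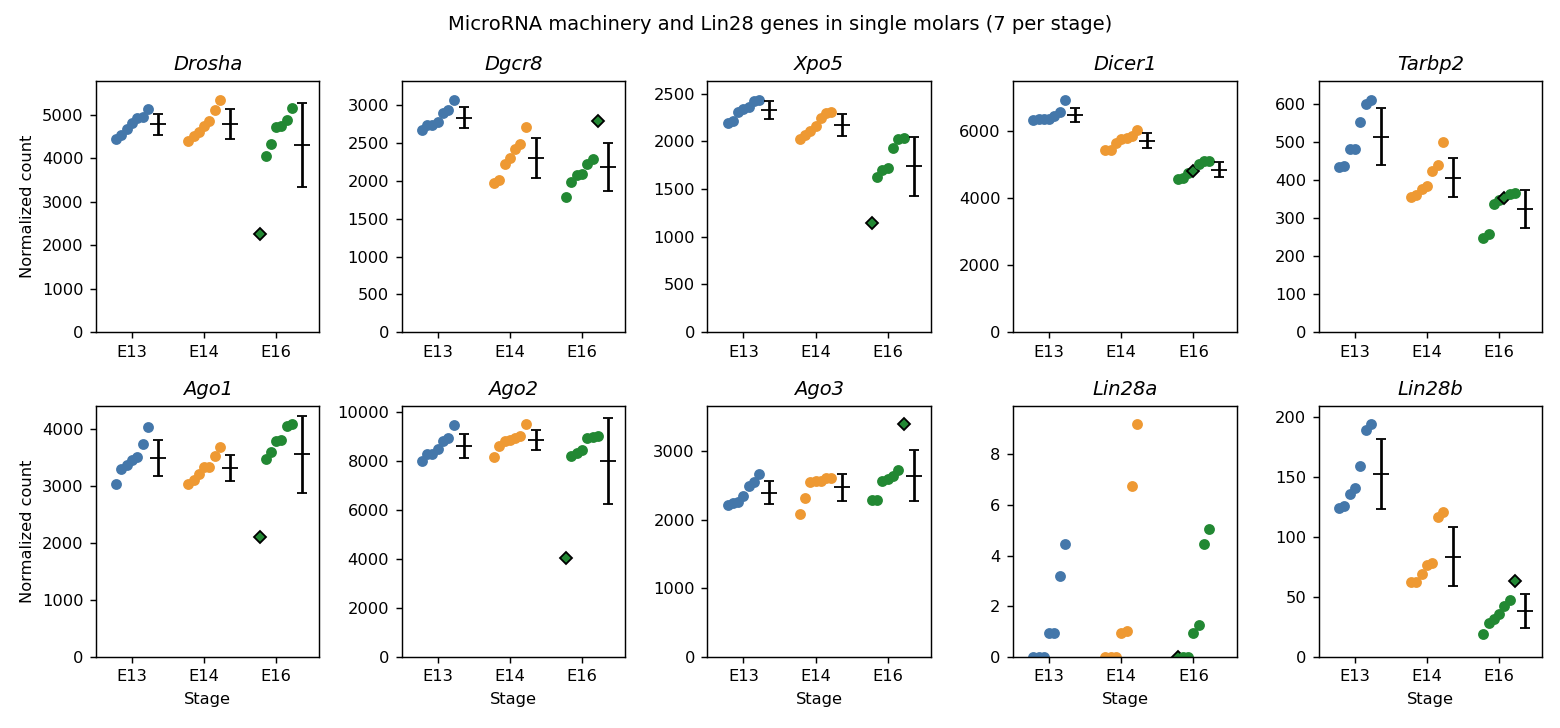
Normalized count (y axis, from 0) of the 10 genes in each molar at E13, E14 and E16, 7 teeth per stage, with mean and SD in black (not drawn for *Lin28a*, which was near 0). Diamonds mark the E16 left tooth of embryo 3, which is low for *Drosha*, *Ago1*, *Ago2* and *Xpo5* and lies within the range of the other E16 teeth for *Dicer1*.

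Within the Microprocessor, *Dgcr8* fell at the first step and *Drosha* was not called at any. *Dgcr8* ran from 2674 to 3077 at E13 (median 2785), from 1976 to 2712 at E14 (median 2306) and from 1786 to 2794 at E16 (median 2089). At E14 and again at E16, 6 of 7 teeth lay below every E13 tooth, and the seventh at E16 was the tooth of embryo 3. Its log2 fold change was -0.30 (SE 0.09) for E14 against E13 (edgeR adjusted p = 0.0145), -0.09 (SE 0.09) for E16 against E14 (edgeR adjusted p = 0.493) and -0.38 (SE 0.09) for E16 against E13 (edgeR adjusted p = 0.000757). The gene span of *Dgcr8*, introns included, shares 825 bases with *Trmt2a* on the opposite strand. It shares 4374 bases with *Gm49776* on its own strand, which had no row of counts. No strand setting was given for the counting, so reads in the overlap with *Trmt2a* cannot be assigned with certainty. *Drosha* ran from 4447 to 5126 at E13 (median 4815), from 4388 to 5349 at E14 (median 4745) and from 2250 to 5153 at E16 (median 4708), and its ranges overlapped throughout. Its log2 fold change was 0.00 (95% confidence interval -0.23 to 0.24) at the first step and -0.16 (-0.40 to 0.08) at the second, and the second was -0.03 without the tooth of embryo 3.

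*Xpo5*, the nuclear export receptor for precursor hairpins, fell at the second step. It ran from 2192 to 2438 normalized counts at E13 (median 2335), from 2025 to 2306 at E14 (median 2165) and from 1141 to 2037 at E16 (median 1719). The E13 and E14 ranges overlapped, and 6 of 7 E16 teeth lay below every E14 tooth. *Xpo5* had a log2 fold change of -0.10 (SE 0.09) for E14 against E13 (edgeR adjusted p = 0.472), -0.33 (SE 0.09) for E16 against E14 (edgeR adjusted p = 0.00700) and -0.43 (SE 0.09) for E16 against E13 (edgeR adjusted p = 0.000411). The lowest value was the tooth of embryo 3, and without it the fold change for E16 against E14 was -0.23 (edgeR adjusted p = 0.00205).

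*Ago1*, *Ago2* and *Ago3*, whose products hold the microRNA, were not called in any comparison of the 3 stages over all teeth. *Ago2*, the Argonaute that can itself cut targets, ran from 7991 to 9461 at E13 (median 8503), from 8161 to 9495 at E14 (median 8864) and from 4053 to 9002 at E16 (median 8446). Only the tooth of embryo 3 lay outside the span of the earlier stages, and the other 6 E16 teeth ran from 8188 to 9002. For *Ago2* the log2 fold change was 0.04 (95% confidence interval -0.20 to 0.27) for E14 against E13 and -0.15 (-0.39 to 0.09) for E16 against E14, and the latter was -0.02 (SE 0.05) without that tooth. The gene span of *Ago2*, introns included, shares 1711 bases with *Chrac1* on the opposite strand.

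*Ago1* ran from 3044 to 4038 at E13 (median 3463), from 3030 to 3682 at E14 (median 3336) and from 2100 to 4085 at E16 (median 3783). At E16, 4 of 7 teeth lay above every E14 tooth and the tooth of embryo 3 lay below them all. The log2 fold change for E16 against E14 was 0.10 (SE 0.10) over all teeth (edgeR adjusted p = 0.527) and 0.21 (SE 0.06) without that tooth, when *Ago1* was called higher (edgeR adjusted p = 0.00929) among 18.5% of all genes. *Ago3* went the other way in that tooth, which at 3397 was above the 2287 to 2730 of the other E16 teeth. *Ago3* ran from 2221 to 2665 at E13 (median 2349) and from 2092 to 2618 at E14 (median 2567), and its log2 fold change for E16 against E13 was 0.13 (95% confidence interval -0.03 to 0.30), and 0.08 without that tooth.

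The Lin28 paralogs lie at chr4:134003330-134018841 (*Lin28a*) and chr10:45376620-45486395 (*Lin28b*), both on the minus strand of GRCm38, and differed in level. *Lin28a* counts were 0 to 9 per tooth, with 0 in 3 of 7 teeth at each stage and sums of 9, 18 and 13 counts over the 7 teeth of E13, E14 and E16, so that most teeth were at or under 3 counts and no fold was computed. *Lin28b* ran from 124 to 194 normalized counts at E13 (median 141), from 62.2 to 121 at E14 (median 76.3) and from 19.0 to 63.1 at E16 (median 36.003). No E14 or E16 tooth reached the lowest E13 tooth, and 6 of 7 E16 teeth lay below every E14 tooth. The seventh, at 63.1, was the tooth of embryo 3.

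The *Lin28b* mean was 54.7% of its E13 level at E14 and 24.96% at E16. Its log2 fold change was -0.87 (SE 0.21) for E14 against E13 (edgeR adjusted p = 0.00473), -1.14 (SE 0.22) for E16 against E14 (edgeR adjusted p = 0.00036) and -2.01 (SE 0.22) for E16 against E13 (edgeR adjusted p = 7.73e-08). Without the tooth of embryo 3 the last was -2.16 (SE 0.21). *Lin28b* had only 20 to 198 raw counts per tooth, and left and right teeth of the same embryo differed by 0.16 to 0.63 on the log2 scale in the 3 embryos with both, against 0.06 to 0.15 for *Dicer1*.

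Whether a gene changed more at one step than the other was tested as the difference between the log2 fold changes of E16 against E14 and E14 against E13. None of the 9 genes passed in edgeR, none had an unadjusted p under 0.05 in edgeR or DESeq2 and none passed in DESeq2, where 13.7% of all genes passed in edgeR. The difference was -0.05 (95% confidence interval -0.24 to 0.13) for *Dicer1*, 0.02 (-0.38 to 0.41) for *Tarbp2* and -0.27 (-1.03 to 0.49) for *Lin28b*. For *Dgcr8* it was 0.21 (-0.09 to 0.52) and for *Xpo5* -0.23 (-0.54 to 0.09), so that the step at which either fell cannot be told apart by this test. Without the tooth of embryo 3, *Ago1* passed (0.28, SE 0.10, edgeR adjusted p = 0.0495).

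The table with E15 molars, in estimated counts from a different quantification, held 9 of the 10 genes (all but *Dgcr8*), of which 8 were tested. The E15 teeth carry a label of another form (age E15) and are not among the mouse stages that the study describes. In comparisons with E15, stage therefore cannot be told apart from the set of libraries. From E13 to E15, 4 of 8 fell and none rose, where 8.49% of its 13447 tested genes fell and 18.3% rose. *Dicer1* ran from 6463 to 7101 normalized estimated counts at E13 (median 6733), from 4494 to 5974 at E15 (median 5319) and from 4700.2 to 6029 at E16 (median 5169). Every E15 tooth lay below every E13 tooth, and the E15 and E16 ranges overlapped. The log2 fold change was -0.31 (SE 0.08) for E15 against E13 (edgeR adjusted p = 0.00730) and -0.05 (95% confidence interval -0.22 to 0.12) for E16 against E15.

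**Figure D4:**
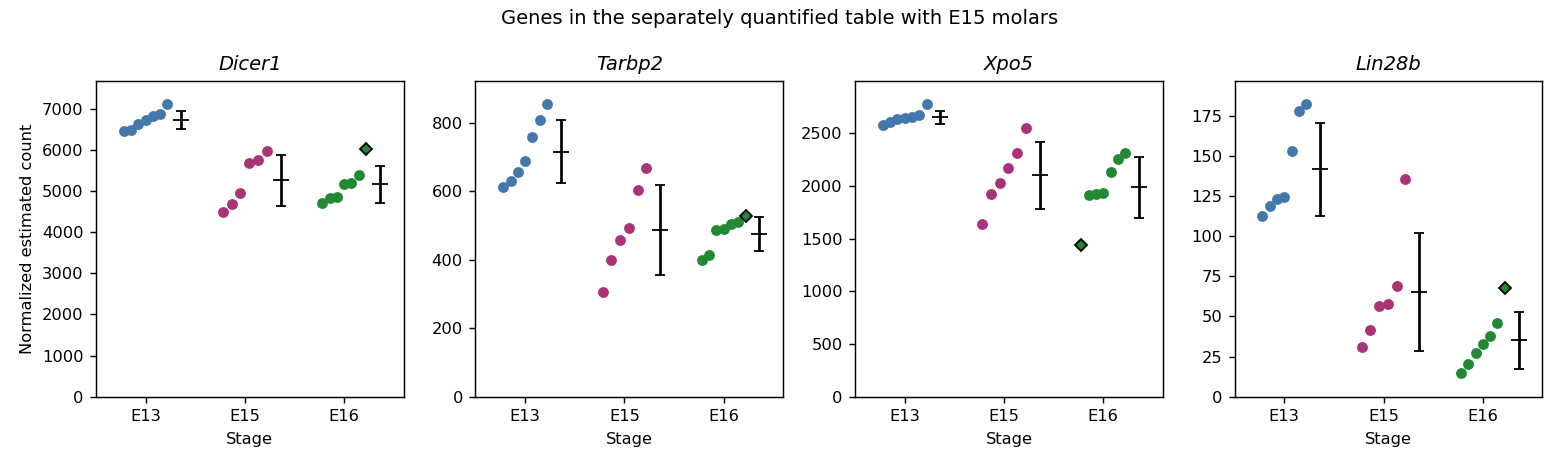
Normalized estimated count (y axis, from 0) of *Dicer1*, *Tarbp2*, *Xpo5* and *Lin28b* in single molars at E13 (7 teeth), E15 (6) and E16 (7), with mean and SD in black and a diamond for the E16 left tooth of embryo 3. E15 teeth lie below all E13 teeth for *Dicer1* and *Xpo5*, and 1 E15 tooth of *Lin28b* at 135 lies within the E13 range.

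*Lin28b* in that table ran from 112 to 182 at E13 (median 124), from 31.2 to 135 at E15 (median 57.2) and from 14.9 to 67.9 at E16 (median 32.6). The E15 left tooth of embryo 8, at 135, was the one E15 tooth inside the E13 range. The log2 fold change was -1.08 (SE 0.31) for E15 against E13 (edgeR adjusted p = 0.0129) and -0.92 (SE 0.32) for E16 against E15 (edgeR adjusted p = 0.1002). The latter passed without the E16 left tooth of embryo 3 (-1.15, edgeR adjusted p = 0.0182) or without the E15 right tooth of embryo 4 (-1.06, edgeR adjusted p = 0.0402). It shrank to -0.57 without the E15 left tooth of embryo 8 (edgeR adjusted p = 0.344). *Tarbp2* fell by 0.51 on the log2 scale from E13 to E15 (SE 0.14, edgeR adjusted p = 0.0103).

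*Xpo5* fell by 0.29 on the log2 scale from E13 to E15 (SE 0.10, edgeR adjusted p = 0.0370), with all 6 E15 teeth (1637 to 2547, median 2095) below all E13 teeth (2580 to 2773, median 2645). That call was lost without any 1 of 9 teeth, namely the E13 teeth of embryo 1 (adjusted p = 0.0579), 2 (0.0523), 5 (0.0511), 7 (0.0543), 9 (0.0664) and 10 (0.0553) and the E15 teeth of embryo 5 (0.0819), 6 (0.0720) and 8 (0.102), all in edgeR. From E15 to E16 none of the 8 genes passed in edgeR or in DESeq2, 1 (*Lin28b*) had an unadjusted p under 0.05 in each, and 6.33% of all genes passed in edgeR. *Ago2* at E15 ran from 6828 to 7674, below all E13 teeth (7890.0 to 9291), with a log2 fold change of -0.17 (SE 0.11, edgeR adjusted p = 0.282). It was called lower when the E16 tooth of embryo 3 was left out of the fit (edgeR adjusted p = 0.0202), and 12.9% of all genes were then lower. *Ago1* spread widely in this table, from 806 to 4320 over the 6 E15 teeth, from 1003 to 3816 over the 7 E16 teeth and from 1973 to 3563 over the 7 E13 teeth.

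At E16 against E13 the same table again had 4 of 8 genes lower and none higher, where 14.7% of all its genes were lower and 21.7% higher. These were *Dicer1* (log2 fold change -0.36), *Tarbp2* (-0.57), *Xpo5* (-0.40) and *Lin28b* (-1.99). All 7 E16 teeth and 6 of the 7 E13 teeth carry the same names in both tables, so this is a second quantification and not a second sample. Whether the E13 left tooth without an embryo number is the remaining E13 tooth was not shown by its name.

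Other genes of the pathway were taken from lists by role. Of 7 Microprocessor cofactors, 1 fell from E13 to E14 and 3 from E14 to E16, and 4 were lower at E16 than at E13 (*Khsrp* by 0.54, *Ddx17* by 0.32, *Srrt* by 0.28 and *Dhx9* by 0.23 on the log2 scale). The shares of all genes lower were 8.47%, 13.1% and 19.6%. None rose. Without the E16 left tooth of embryo 3 the counts were 1, 4 and 5, and *Khsrp* at E16 against E14 was -0.29 in place of -0.45. *Khsrp* encodes a protein that binds let-7 loops and aids their processing, and *Ddx17* a helicase of the Microprocessor. Of 4 genes for export, dicing and editing partners, *Adar*, the RNA editing enzyme, and *Xpo1*, an exportin, were lower at E16 than at E13 (log2 fold change -0.35 and -0.33). *Ran*, the GTPase that drives export, rose at the first step by 0.37 and fell by 0.58 at the second on the log2 scale, and *Prkra*, a second Dicer partner, was at -0.05 for E16 against E13 (-0.14 without the E16 left tooth of embryo 3). Without that tooth *Xpo1* was also called lower at both steps (-0.20 and -0.24) and *Adar* at the first (-0.18).

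Of 12 silencing effectors, none was called from E13 to E14 in edgeR, although 2 had an unadjusted p under 0.05. From E14 to E16, 1 rose and 4 fell, against 15% and 13.1% of all genes. At E16 against E13, 6 were lower and 1 higher, where 19.6% of all genes were lower and 21.6% higher. *Mov10*, a helicase bound to Argonaute, showed the largest change of these, with 1668 to 2070 normalized counts at E13 (median 1959) and 658 to 1516 at E16 (median 1187), a log2 fold change of -0.75 (-0.63 without the tooth of embryo 3, which was the lowest). Without that tooth 1 effector was lower from E13 to E14, and 7 were lower and 2 higher at E16 than at E13, against 23.1% and 25.5% of all genes. *Ago4* was the one that rose, from 302 to 405 at E13 (median 369) to 359 to 581 at E16 (median 438), a log2 fold change of 0.36. Its E13 and E16 ranges overlapped, and without the tooth of embryo 3 it was 0.33 (edgeR adjusted p = 0.0141). Its share of the summed *Ago1* to *Ago4* level per kilobase was 9.48% in that tooth, where *Ago1* and *Ago2* were low, and 4.03% to 6.02% in the other 6 E16 teeth, against at most 4.63% at E13.

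Of the 6 genes for tailing, decay and turnover, *Tut4*, the uridylyl transferase that Lin28a recruits to let-7 precursors, fell at both steps. It ran from 5397 to 7117 normalized counts at E13 (median 6194), from 4534 to 5848 at E14 (median 5261) and from 4063 to 4876 at E16 (median 4215), and its log2 fold change was -0.26 at the first step, -0.23 at the second and -0.50 over both. *Tut7*, its paralog, fell at the first step (log2 fold change -0.14), rose at the second (0.19) and was at 0.05 over both. *Trim71*, a let-7 target and regulator of Argonaute, was lower at E14 and E16 than at E13 (log2 fold change -1.81 and -2.61) with 0 to 33.1 normalized counts per tooth. *Dis3l2*, *Zswim8* and *Xrn2* were not called in these comparisons over all teeth. Without the E16 left tooth of embryo 3, *Dis3l2* was called higher for E16 against E14 (0.16, edgeR adjusted p = 0.0336), and *Xrn2* higher for E14 against E13 (0.15, edgeR adjusted p = 0.0350) and lower for E16 against E14 (-0.15, edgeR adjusted p = 0.0437).

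Known let-7 targets moved in both directions at the first step, and 7 of 12 fell at the second. Of the 12, 3 rose and 3 fell from E13 to E14, where 11.3% of all genes rose and 8.47% fell. From E14 to E16, 1 rose and 7 fell, where 15% of all genes rose and 13.1% fell. Their median log2 fold change was -0.0049 and then -0.48, beside -0.01 and 0.00 for all genes. Without the E16 left tooth of embryo 3, 5 rose and 4 fell at the first step, 0 rose and 8 fell at the second, and the second median was -0.39. *Hmga2*, a chromatin protein of embryonic cells, ran from 6909 to 10404 normalized counts at E13 (median 9889), from 10165 to 13445 at E14 (median 11464) and from 4196 to 5454 at E16 (median 4699), so that the E16 teeth lay below all others. Its log2 fold change was 0.40 at the first step and -1.34 at the second. *Igf2bp1*, an RNA-binding protein gene, fell at both steps without overlap, from 5026 to 5899.97 at E13 (median 5481) to 3781 to 4574 at E14 (median 4070.1) and 1284 to 2052 at E16 (median 1786), with log2 fold changes of -0.42 and -1.26.

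**Figure D5:**
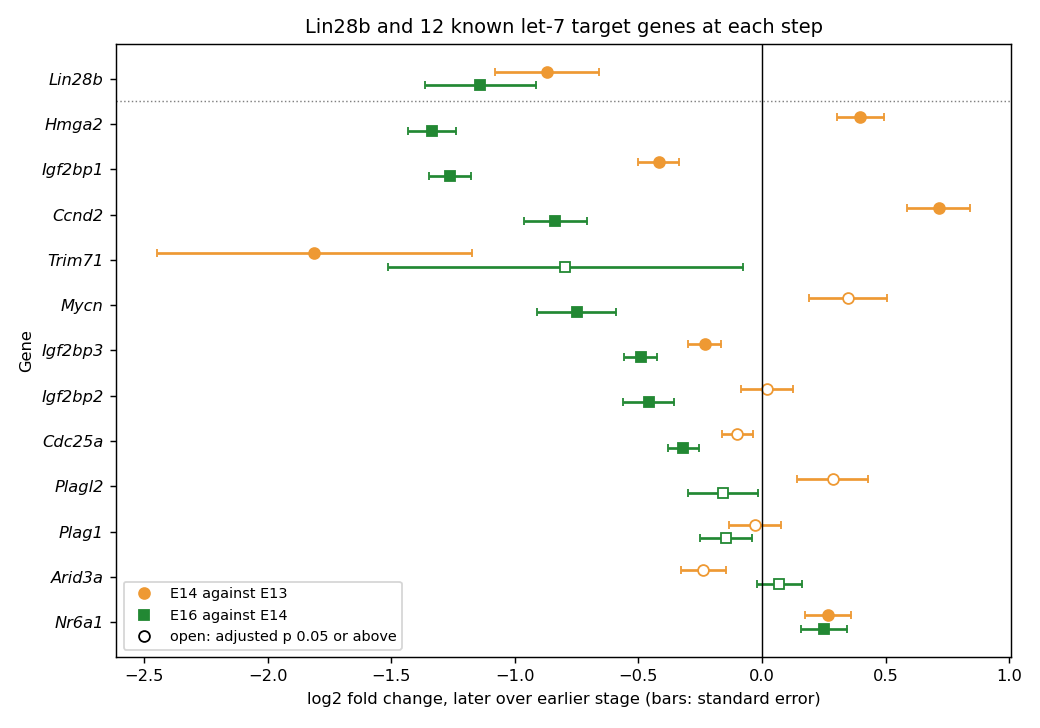
Log2 fold change (x axis) with standard error of *Lin28b* (top row) and 12 known let-7 target genes (y axis) from E13 to E14 and from E14 to E16, filled where the adjusted p was under 0.05. The 7 targets that fell from E14 to E16 reach -1.34 in *Hmga2*, whereas *Ccnd2* and *Hmga2* rose at the step before by 0.71 and 0.40.

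*Ccnd2*, encoding cyclin D2, rose by 0.71 and then fell by 0.84 on the log2 scale, and *Mycn* fell by 0.75 at the second step. The same 2 steps differed for 4 of the 12 targets by the test of the difference (*Hmga2*, *Igf2bp1*, *Mycn* and *Ccnd2*), all toward a lower second step. Of all genes, 13.7% passed this test in either direction. Without the E16 left tooth of embryo 3, 5 of the 12 passed, all toward a lower second step, against 10.5% of all genes. Markers of dividing cells moved in the same way, with 2 of 5 higher at the first step (3 without that tooth), 5 of 5 lower at the second and 5 of 5 passing the test of the difference. Of all genes, 11.3% were higher at the first step (16.7% without that tooth) and 13.1% lower at the second. The part of dividing cells in the fall of the targets was not tested. *Nr6a1*, whose 3′UTR held 8 matches to the let-7 seed, the most of these 12 genes, rose at both steps (log2 fold change 0.27 and 0.25), and the second call was lost without the E16 left tooth of embryo 3 (0.21, edgeR adjusted p = 0.0619). In all, 9 of the 12 targets held a match, and *Ccnd2*, *Mycn* and *Plag1* held none in the window searched. Among genes with 3′UTRs of a length like that of each target, 7.04% (*Mycn*) to 34.4% (*Igf2bp1*) held a match. The 12 genes were listed as known let-7 targets, so their matches are a description and not separate evidence.

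Let-7 itself could be followed only through its hairpin rows and host transcripts. The 12 let-7 family rows summed to 0 to 540 counts over all 21 teeth, 5 of them passed the filter, and none of the 5 was called by edgeR in any comparison, with 1 (*Mirlet7e* at E16 against E13) at an unadjusted p under 0.05. The largest, *Mirlet7e*, had 228, 175 and 137 counts over the 7 teeth of E13, E14 and E16 (log2 fold change for E16 against E13 -0.85, SE 0.36, edgeR adjusted p = 0.0609). Of the 12 microRNA host transcripts listed, 6 were tested. *Mir99ahg*, whose locus on chromosome 16 holds *Mirlet7c-1*, ran from 2239 to 2736 normalized counts at E13 (median 2373), from 1977 to 2862 at E14 (median 2133) and from 3248 to 6333 at E16 (median 3491), so that all E16 teeth lay above the earlier ones, and its log2 fold change for E16 against E14 was 0.82. The highest value was the tooth of embryo 3, and without it the fold change was 0.68. *Mir17hg*, host of the miR-17 to miR-92 cluster, fell by 0.77 at the same step on the log2 scale, and *Mir22hg* rose by 1.15 at the first step. *Mir22hg* had low counts, with 9.75 to 30.3 normalized counts at E13 and 24.2 to 72.7 at E14, and these ranges overlapped.

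Among the 15 progression genes, *Dicer1* ranked near the bottom per kilobase of annotated exon. Its rank per kilobase was 11 to 13 in the E13 teeth, 13 to 14 in the E14 teeth and 14 to 15 in the E16 teeth. This place depends on the division by length, as its 16750 bases of exon were the most of the 15. Without that division, its E13 mean of 6480 normalized counts lay below only *Ctnnb1*, *Msx1*, *Pax9* and *Runx2*. At E16 its mean of 4849 lay above only *Msx1*, *Shh*, *Inhba*, *Bmp4* and *Acvr2a*. Of the 15, 6 rose and 1 fell (*Dicer1*) from E13 to E14, against 11.3% of all genes that rose and 8.47% that fell. From E14 to E16, 5 rose and 4 fell (*Dicer1*, *Inhba*, *Msx1* and *Pax9*), against 15% of all genes that rose and 13.1% that fell. At E16 against E13, 8 were higher and 4 lower, against 21.6% and 19.6% of all genes. Without the E16 left tooth of embryo 3, 7 rose and 1 fell from E13 to E14, against 16.7% and 13.8% of all genes. From E14 to E16, 8 then rose and 5 fell, against 18.5% and 15.8% of all genes. The highest, *Ctnnb1*, which encodes β-catenin, held 4361 normalized counts per kilobase at E13 against 387 for *Dicer1*.

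The genes whose course over the 21 teeth was most like that of *Dicer1* were *Setdb1*, *Baz1b* and *Ice1*, with root mean square differences of 0.0654, 0.0659 and 0.0686 in centered log2 level. All 3 fell from stage to stage in their means, *Setdb1*, a histone methyltransferase gene, from 3498 to 3018 and 2639 normalized counts. The most alike to *Lin28b* were *Gm37077*, *Gm38348* and *Gm37999*, at 0.30, 0.38 and 0.38. These are unnamed transcripts on chromosomes 1, 2 and 1, away from the *Lin28b* gene on chromosome 10. *Gm37077* and *Gm37999* are annotated as unverified transcripts (TEC) and *Gm38348* as sense intronic. TEC rows took a raised share of counts in the E16 left tooth of embryo 3, which also had the highest *Lin28b* level of its stage. The likeness was measured over the same teeth for all genes and is a description.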

How the data were processed

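RNA from each tooth was sequenced separately. The authors trimmed the reads (Trimmomatic), aligned them to GRCm38 with STAR and deposited HTSeq gene counts for 21 teeth. The second deposited table holds salmon estimated counts, given as whole numbers, for 14185 genes in 20 teeth, and was tested separately. The strand setting is not given in the sources used here.

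Stage was fitted to all 21 libraries in edgeR 4.0.16 (quasi-likelihood test, TMM, filterByExpr, 19101 genes), with Benjamini-Hochberg adjustment over all tested genes and a threshold of 0.05. Normalized counts are counts divided by DESeq2 1.42.0 size factors. Exon lengths, over the joined exons of all annotated transcripts of a gene, came from GENCODE vM21. Likeness used log2 normalized counts (pseudocount 1), each gene centered on its mean. Total estimated counts were 14965319 to 24056056 per tooth. Alternatives were DESeq2, other filters, side or embryo number as a term, embryo sums and leaving out each tooth. Scripts were tested on simulated data.

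All 10 genes were named, with, from each other list, at most the 5 called genes of largest change per comparison, or every gene of a list of 6 or fewer. Genes and lists were chosen with earlier results of these data known. Some teeth share an embryo, so p-values measure spread between teeth, not only between animals. One gene of the let-7 target list is not reported here and was left out of its counts.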

Additional observations from a re-analysis of the deposited data

Results flagged for a closer look

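In 57 groups of 6 or 7 teeth, 11 values lay apart from the rest of their stage by Dixon's test at the 95% level. In independent groups chance alone gives this in about 1 of 20. The 57 groups were not independent, as most E13 and E16 teeth were quantified in both ways. The *Lin28a* groups also held several counts of 0, so that rate is no measure for the 11. Of the 11 values, 7 belonged to the E16 left tooth of embryo 3. In the count table that tooth held 2250 normalized counts of *Drosha*, 2100.1 of *Ago1*, 4053 of *Ago2* and 3397 of *Ago3*, and in the estimated counts 2221 of *Drosha*, 4491 of *Ago2* and 3602 of *Ago3*. In the same tooth the summed markers of endothelium (3424 against 8165 to 10147 in the other E16 teeth), dental epithelium (33615 against 51594 to 60578) and dental mesenchyme (25979 against 42276 to 48391) were low, as were those of cartilage (799.8 against 3544 to 4745), bone (10619 against 13896 to 17164), Schwann cells and neurons (477 against 538 to 759), macrophages (1273 against 1423 to 2007) and dividing cells (34668 against 35587 to 46981). Its red cell and skeletal muscle sums lay within the range of the others. Their part in the levels of these genes was not tested.

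The E13 right tooth of embryo 1 had the highest *Dicer1* level of its stage, 6935 against 6577 in the next tooth. In the estimated counts, *Lin28b* reached 135 in the E15 left tooth of embryo 8. *Lin28a* reached 4.45 in the E13 left tooth of embryo 3 and 4.37 in the E16 left tooth of embryo 5, each from 5 or fewer estimated counts.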

How the results depend on the processing

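Over 52 fold changes recomputed 1420 times under the alternatives, 1381 values kept their side of the threshold, 34 were weaker and 5 were stronger. Of those where the main or the recomputed value passed, 0 reversed. Some values that did not pass changed sign and are among the 1381, such as *Drosha* for E14 against E13 (-0.07 to 0.02). Leaving out 1 tooth at a time gave 3 to 4 calls of 9 for E14 against E13, 3 to 5 for E16 against E14, 5 in every case for E16 against E13 and 0 to 1 for the difference between the steps (1 without the E16 left tooth of embryo 3). In the table with E15 it gave 3 to 5 of 8 for E15 against E13 and 0 to 1 for E16 against E15. With every gene that had any count in the fit, *Dicer1* was not called for E14 against E13 (adjusted p = 0.0587, edgeR) nor *Tarbp2* for E16 against E14 (0.0525). *Tarbp2* was not called at the first step with side as a factor (0.0538), nor at the second with the teeth of 1 embryo summed (0.0547). The counts of the other lists without the E16 left tooth of embryo 3 were added after seeing the data. Without division by length, 11 of 30 ranks of level stayed the same, with *Ago2* first and *Dicer1* second at every stage.

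The same embryo number in different stages belongs to different animals, and the number did not pair the teeth: of 11 pairs, deviations correlated from -0.0883 to 0.211, over 0.1 in 2. With the number as a replicate block, 0 of 9 genes were called for E14 against E13 (adjusted p = 0.0724 for *Lin28b*, 0.196 for *Dgcr8*, 0.206 for *Dicer1* and 0.264 for *Tarbp2*, edgeR), 3 for E16 against E14 and 4 for E16 against E13, and 1 of 8 for E15 against E13. Over all 19101 tested genes the block called 1677 in place of 3767 for E14 against E13. It called 4843 in place of 5370 for E16 against E14 and 5210 in place of 7887 for E16 against E13. Genes called lower with the block were 584, 2268 and 2380 in these comparisons. The number over all genes for E15 against E13 is not given here. The cause of the changes in calls was not tested. Depth limits *Lin28a*, at 9 or fewer counts per tooth, and *Lin28b*.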
